A study of Mus musculus with 24 samples.

Results

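The 10 genes described here mark a Wnt response or the primitive streak in the mouse: Wnt3, Axin2, Lef1, Sp5, Cdx1, T, Mixl1, Eomes, Evx1 and Fgf8. They were taken by gene symbol, and each symbol names 1 of the 37310 gene entries in both deposited tables. RNA sequencing covered mouse embryonic stem (ES) cells of 6 genotypes with 3 biological replicates each. The first table holds wild-type cells (WT) and cells without Smchd1 (Smchd1 KO), without Dux (Dux KO) or without both (Double KO). The second holds cells without Tet1, Tet2 and Tet3 (Tet TKO) and cells without these Tet genes and Smchd1 (quad KO). All groups were grown without feeder cells on gelatin, in medium with serum and the cytokine LIF, and none carried a further treatment. Each WT and Smchd1 KO replicate had 2 technical runs, which gave 24 libraries. The labels do not say whether replicates were separate clones or cultures, so p-values measure only the spread between these samples.

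Canonical Wnt signalling works through secreted Wnt ligands, which bind Frizzled and LRP receptors at the cell surface. Binding stops the destruction complex, in which the scaffold AXIN holds beta-catenin for degradation, and beta-catenin then joins TCF/LEF factors on DNA to switch on target genes. In the embryo this pathway is needed to form the primitive streak, the site where epiblast cells turn into mesoderm and endoderm, and in ES cells it feeds into the choice between self-renewal and exit from pluripotency. SMCHD1 is a structural-maintenance-type protein that helps keep genes silent, DUX is a transcription factor of the cleavage-stage embryo, and TET enzymes start the removal of DNA methylation.

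Levels are in CPM, counts per 1000000 reads as the authors scaled them, given as mean ± SD over 3 replicates. Depth ran from 11.4 to 74.5 M gene reads per library (M, 1000000 reads). The tables had been scaled separately and were compared only within themselves. Smchd1 had 203 to 207 CPM in WT and 46.2 to 76.5 in Smchd1 KO, and 151 to 161 in Tet TKO against 12.2 to 40.0 in quad KO. Dux stayed at or under 0.847 CPM in all 18 samples, WT included, so its level checks little. In replicates 1, 2 and 3 it had 0.0410, 0.113 and 0.141 CPM in WT and 0.833, 0.847 and 0.410 in Smchd1 KO. Dux KO had 0.447, 0 and 0 CPM, the first above every WT sample, and Double KO had 0, 0.245 and 0. Tet1 stood at 270 to 293 CPM in the second table. The 9 measured ES cell markers each had a mean of at least 1 CPM in every genotype. Between WT replicates the spread over counting error was 1.33 to 2.19 and between Tet TKO replicates 1.44 to 1.69, where 1 is counting error alone. That is near the 1.59 to 1.89 of repeat runs of a WT sample. Between replicates it was 3.34 to 13.55 in Smchd1 KO and 3.83 to 11.1 in quad KO, and Dux KO and Double KO reached 31.6 and 32.3. The groups compared thus differed in spread, also quad KO and Tet TKO. Samples in which a whole chromosome stood over 0.3 log2 units from the reference were Smchd1 KO replicate 2, Dux KO replicates 2 and 3, Double KO replicate 3 and quad KO replicate 3. In the other quad KO samples chromosome 6, which holds Evx1, was also down, so the shifts of replicates 1, 2 and 3 were -0.24, -0.29 and -0.31, and those of chromosome 8 were -0.20, -0.26 and -0.29.

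RefSeq promoter windows (GRCm38.p6, 250 bases before to 50 after a gene's start) were matched for 7 of the 10 genes, with none for Mixl1, Cdx1 and Fgf8. They were searched on both strands for the TCF/LEF core CTTTGNT, the letters that TCF/LEF factors recognise, and for the T-box site TCACACCT. The core was in 3 of the 10 windows of these genes (3 of the 7 genes), against 18.59% of all 32851 windows. The T-box site was in none of the 10 windows, against 1.2755% of all. Lef1 has 4 of the 10 windows, some of them overlapping and none with the core, so the windows are not independent. The letters of these motifs do not overlap. Positions count from the gene start, with -1 as the last base before it. Sp5 held the core at -104 on the gene's strand and at -222 on the other, Eomes at -79 on the other strand, and Wnt3 at +19 on its own. A match is a description of letters and not of binding. The stretches below are shown because they hold every match, and that of T because T changed most of the 9 genes tested in quad KO vs Tet TKO. All are on the plus strand, at chr2:70474673-70474922 for Sp5, chr9:118477939-118478188 for Eomes, chr17:8434173-8434422 for T and chr11:103774182-103774211 for Wnt3, with the core in capitals, on either strand.
Sp5: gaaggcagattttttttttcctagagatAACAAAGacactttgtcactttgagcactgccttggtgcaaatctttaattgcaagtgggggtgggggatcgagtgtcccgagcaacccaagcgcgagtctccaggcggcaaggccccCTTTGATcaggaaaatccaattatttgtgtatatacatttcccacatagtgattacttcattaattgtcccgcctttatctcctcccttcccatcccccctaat
Eomes: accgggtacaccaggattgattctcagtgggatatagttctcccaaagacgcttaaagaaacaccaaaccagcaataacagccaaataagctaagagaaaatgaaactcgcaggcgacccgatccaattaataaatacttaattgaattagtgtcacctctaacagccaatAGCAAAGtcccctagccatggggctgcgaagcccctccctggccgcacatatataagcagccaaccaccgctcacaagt
Wnt3: cctcaagtggaCTTTGTTccaactattggg
T: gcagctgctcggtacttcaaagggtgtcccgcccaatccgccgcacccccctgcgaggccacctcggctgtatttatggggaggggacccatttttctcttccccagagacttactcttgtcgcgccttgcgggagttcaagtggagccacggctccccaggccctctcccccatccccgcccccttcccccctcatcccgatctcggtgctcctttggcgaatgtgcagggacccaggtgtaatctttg

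In limma fits to all genotypes of a table, called changes on loss of Smchd1 were found in the cells that also lack the Tet genes. In quad KO vs Tet TKO the ligand gene Wnt3 and the streak factors Mixl1 and T rose, the homeobox gene Cdx1 fell, and Axin2, the usual readout of the pathway, had nearly equal means. A gene was called when its Benjamini-Hochberg adjusted p over all genes was under 0.05 in limma, two-sided, on log2(CPM + 0.5), among genes that reached 0.5 CPM in 3 or more samples. That was 4 called of the 9 genes that passed this filter (Evx1 did not), and edgeR and DESeq2 also called 4. Of all 14920 genes tested 37.7% were called (17.1% higher, 20.6% lower), so the share of these genes lay near the background. T and Fgf8 passed the filter through all 3 quad KO samples and 1 Tet TKO sample.

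In the first table the same loss moved few of these genes past the test, in fits that held all of its genotypes. In Smchd1 KO vs WT limma called 0 of the 8 that passed the filter (Evx1 and Fgf8 did not), with 1 at an unadjusted p under 0.05, and edgeR and DESeq2 called 0. The background was 0.889% of 16200 genes in this fit, which also held Dux KO and Double KO and shared 1 spread with them. With only WT and Smchd1 KO fitted, 42.3% of all genes were called, and 2 of the 8 (Mixl1 and Axin2) were called lower. The fit of the second table held Tet TKO and quad KO alone, so the shares called in the 2 tables are not alike in this respect. In Double KO vs Dux KO limma and edgeR called 0 of 8, with 3 at an unadjusted p under 0.05, and DESeq2 called 1, against 0.0123% of all genes in limma. The difference between these effects, the interaction, was called for 0 of 8 by limma and edgeR, with 2 and 3 at an unadjusted p under 0.05, and for 1 by DESeq2, against 0.512% of all genes in limma.

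By mean, Lef1 and Sp5 were lowest in Dux KO and Wnt3 was highest in Double KO, and of these Wnt3 passed the test. In Dux KO vs WT limma and edgeR called 0 of 8, with 4 at an unadjusted p under 0.05, and DESeq2 called 2 lower, against 3.98% of all genes in limma. In Double KO vs Smchd1 KO all 3 tools called 1 of 8 higher, which was Wnt3, against 4.38% of all genes called and 1.40% called higher. Against WT, limma and edgeR called 0 of 8, with 3 and 2 at an unadjusted p under 0.05, and DESeq2 called 1 in Double KO, against 1.57% of all genes in limma. The comparisons within the first table share samples, and their values are given side by side.

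**Figure D1:**
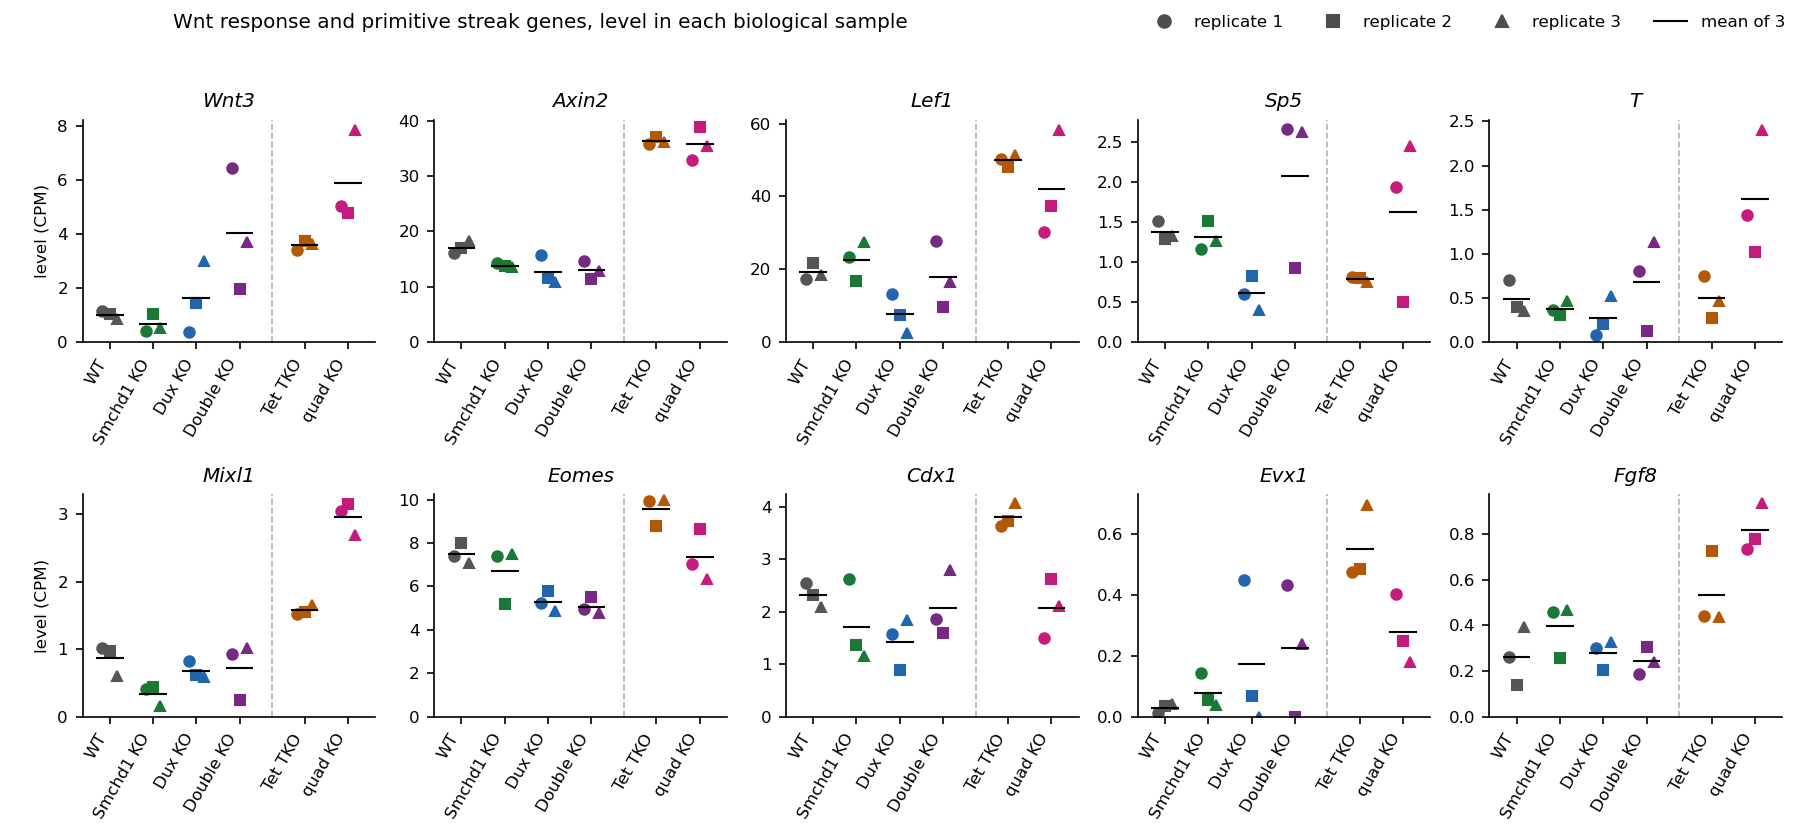
Level in CPM (vertical axis, linear, from 0, its range set for each gene) of the 10 genes in each biological sample of the 6 genotypes, with symbols for replicates and a line at the mean of 3. The dashed line parts the tables, whose levels are not compared. Wnt3 lies between 1.96 and 6.44 CPM in Double KO, and Lef1 between 2.56 and 13.2 CPM in Dux KO.

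Wnt3 (ENSMUSG00000000125.5, chromosome 11) encodes a secreted ligand that the embryo needs to form the streak. In the first table its level was 1.13, 1.05 and 0.851 CPM in the WT replicates and 0.397, 1.03 and 0.533 in Smchd1 KO. Dux KO gave 0.373, 1.44 and 3.02 CPM, and Double KO gave 6.44, 1.96 and 3.68. Every Double KO sample thus lay above every WT and Smchd1 KO sample, while Dux KO overlapped all other genotypes. By mean the order was Smchd1 KO (0.654 ± 0.333 CPM), WT (1.01 ± 0.144), Dux KO (1.61 ± 1.33) and Double KO (4.03 ± 2.26), and only the last stood apart from WT.

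Wnt3 rose 3.69-fold in Double KO vs Smchd1 KO (log2 change 1.88 ± 0.46 SE, limma adjusted p = 0.0426). The ratio of the mean CPM was 6.16, larger because the added 0.5 CPM narrows changes of low genes. The call held in 11 of 18 alternatives, over which the adjusted p ran from 0.000675 to 0.180. It was lost without Smchd1 KO replicate 1, 2 or 3 (1.72, 2.11 and 1.82 on the log2 scale) or Double KO replicate 1 (1.51). It was lost as well when only these genotypes were fitted (adjusted p = 0.0750) and with no filter (0.0835). The change was 1.46 ± 0.46 in Double KO vs WT (adjusted p = 0.102) and 1.19 ± 0.46 for Double KO against Dux KO (0.412), against -0.42 ± 0.46 in Smchd1 KO vs WT and 0.27 ± 0.46 in Dux KO vs WT (limma).

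Trophoblast markers varied between the same libraries. Their summed level in replicates 1, 2 and 3 was 34.3, 26.9 and 222 CPM in Dux KO and 775, 154 and 163 in Double KO, so the sample with the most Wnt3 of each genotype also had the highest sum. The sum was 67.1 to 71.7 CPM in WT. In Smchd1 KO it was highest in replicate 3, at 185 CPM, where Wnt3 was 0.533 CPM. Endoderm markers varied too, with sums of 82.6, 41.5 and 188 CPM in Dux KO, 209, 35.8 and 23.1 in Double KO and 89.0, 48.6 and 242 in Smchd1 KO, against 87.8 to 93.5 in WT. Of these Afp was at 0 in Dux KO, but its means were also low in WT (0.00634 CPM), Double KO (0.0413) and Smchd1 KO (0.377). In Double KO vs Smchd1 KO 0 of 8 endoderm markers tested were called higher and 1, Hnf4a, lower. The background in Double KO vs Smchd1 KO was 4.38% of all genes called and 1.4% called higher. None of the 9 measured trophoblast markers was at 0 in all samples of any of these groups. Elf5 came near it, at 0.149, 0.0687 and 0 CPM in Dux KO. In Double KO vs Smchd1 KO 0 of 7 trophoblast markers tested were called higher and 1, Ascl2, lower. Markers of other types did rise there: 1 of 4 neural (Nes), 1 of 7 fibroblast (Col3a1) and 1 of 9 blood, vessel and heart markers (Myh6) were called higher. The neural sum was 85.7, 58.3 and 95.2 CPM in Double KO replicates 1, 2 and 3 and 30.8, 43.4 and 31.6 in those of Smchd1 KO. The part of these markers in the Wnt3 result was not tested. In bulk samples, fewer cells of a type and less RNA per cell cannot be told apart.

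In the second table Wnt3 was 3.39, 3.73 and 3.65 CPM in Tet TKO and 5.05, 4.77 and 7.86 in quad KO, and the groups did not overlap. It rose 1.53-fold (0.61 ± 0.18, limma adjusted p = 0.0292). The call was lost without Tet TKO replicate 1, 2 or 3 (adjusted p = 0.101, 0.0769 and 0.0841, log2 change 0.58, 0.64 and 0.62) and with no filter (0.0538). The trophoblast sum was 231 to 239 CPM in Tet TKO and 450, 548 and 291 in quad KO replicates 1, 2 and 3. The quad KO sample with the highest sum had the lowest Wnt3. The largest parts of the sum were the keratin genes Krt18 (mean 91.1 CPM in Tet TKO and 187 in quad KO) and Krt8 (74.7 and 142).

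Axin2 (ENSMUSG00000000142.9, chromosome 11) encodes the scaffold of the destruction complex that Wnt signalling itself induces, a negative feedback. Its WT levels of 16.0, 17.0 and 18.3 CPM lay above every other sample of the first table. Smchd1 KO had 14.3, 13.7 and 13.5 CPM, Dux KO 15.8, 11.5 and 10.9, and Double KO 14.7, 11.3 and 12.9. These 3 knockout genotypes overlapped one another. The change from WT was -0.29 ± 0.17 for Smchd1 KO (limma adjusted p = 0.397), -0.43 ± 0.17 for Dux KO (0.139) and -0.39 ± 0.17 for Double KO (0.188), and none was called.

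In the second table Axin2 had the smallest change of the 9 genes tested. Tet TKO had 35.9, 37.1 and 36.2 CPM and quad KO 33.0, 38.8 and 35.5, so the quad KO values lay on both sides of the Tet TKO values. The change was -0.03 ± 0.07 (95% interval -0.19 to 0.13, limma adjusted p = 0.785). Axin2 overlaps an antisense gene in GENCODE M21, as do Lef1, Eomes and Evx1. The use of strand in counting is not given in the sources used here, so reads of such partners cannot be told apart.

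Lef1 (ENSMUSG00000027985.8, chromosome 3) encodes an HMG-box factor that partners beta-catenin on DNA and is itself a Wnt target. It spread widely in Dux KO, with 13.2, 7.49 and 2.56 CPM, all below the WT values of 17.3, 21.7 and 18.5 and the Smchd1 KO values of 23.4, 16.7 and 27.4. Double KO had 27.7, 9.66 and 16.5 CPM and overlapped all 3 other genotypes. By mean, Dux KO (7.75 ± 5.33 CPM) was lowest, and Double KO (17.9 ± 9.08), WT (19.2 ± 2.31) and Smchd1 KO (22.5 ± 5.39) were not separated by their spread.

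The Lef1 change in Dux KO vs WT was -1.5 ± 0.47 (limma adjusted p = 0.0858). Lef1 was called lower without Dux KO replicate 1 (-1.99, adjusted p = 0.0377) by DESeq2 (-1.28) and with array quality weights (-1.33), and over the alternatives the adjusted p ran from 0.00337 to 0.46. Dux KO replicates 2 and 3 are among the samples with a shifted chromosome, though not chromosome 3. Between Dux KO and Double KO the change was 1.29 ± 0.47 (adjusted p = 0.384). Lef1 had 50.3, 48.1 and 51.4 CPM in Tet TKO and 30.2, 37.4 and 58.3 in quad KO, where replicate 3 lay above and the other samples below all Tet TKO samples. That change was -0.30 ± 0.20 (adjusted p = 0.280), and -0.56 (adjusted p = 0.000291) without quad KO replicate 3.

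Sp5 (ENSMUSG00000075304.2, chromosome 2) encodes a zinc-finger factor that is a direct Wnt target, and its promoter stretch above holds 2 TCF/LEF cores. WT gave 1.51, 1.29 and 1.33 CPM and Smchd1 KO 1.16, 1.5 and 1.26, and these overlapped. Dux KO gave 0.597, 0.824 and 0.393 CPM, below every other sample of the first table. Double KO split into 2.66 and 2.61 CPM in replicates 1 and 3 and 0.917 in replicate 2. The change was -0.78 ± 0.29 in Dux KO vs WT (limma adjusted p = 0.123) and 1.14 ± 0.29 in Double KO vs Dux KO (0.214).

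Without Double KO replicate 2, Sp5 was called higher in Double KO than in Dux KO (1.52, limma adjusted p = 0.0207) and in the interaction (1.58, adjusted p = 0.0152, against 1.2 ± 0.41 and 0.172 with it). DESeq2 called both with all samples. Tet TKO had 0.814, 0.795 and 0.752 CPM of Sp5 and quad KO 1.94, 0.495 and 2.44. Replicate 2 was again the low sample and lay below all Tet TKO samples. The change was 0.58 ± 0.36 (adjusted p = 0.244), and 1.06 (adjusted p = 0.00139) without quad KO replicate 2.

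Cdx1 (ENSMUSG00000024619.8, chromosome 18) encodes a caudal-type homeobox factor that answers Wnt and retinoic acid signals and patterns the posterior body. It had 2.54, 2.32 and 2.10 CPM in WT and 2.63, 1.36 and 1.16 in Smchd1 KO. Dux KO had 1.57, 0.893 and 1.84 CPM, below WT, and Double KO had 1.86, 1.59 and 2.79, which overlapped every other genotype. No comparison of the first table called it, and the change in Dux KO vs WT was -0.58 ± 0.28 (limma adjusted p = 0.218). In the second table it was the gene that fell: Tet TKO had 3.63, 3.73 and 4.08 CPM and quad KO 1.5, 2.62 and 2.12, without overlap. The fall was 1.70-fold (-0.76 ± 0.17, adjusted p = 0.00996), and the call held in 17 of 17 alternatives.

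**Figure D2:**
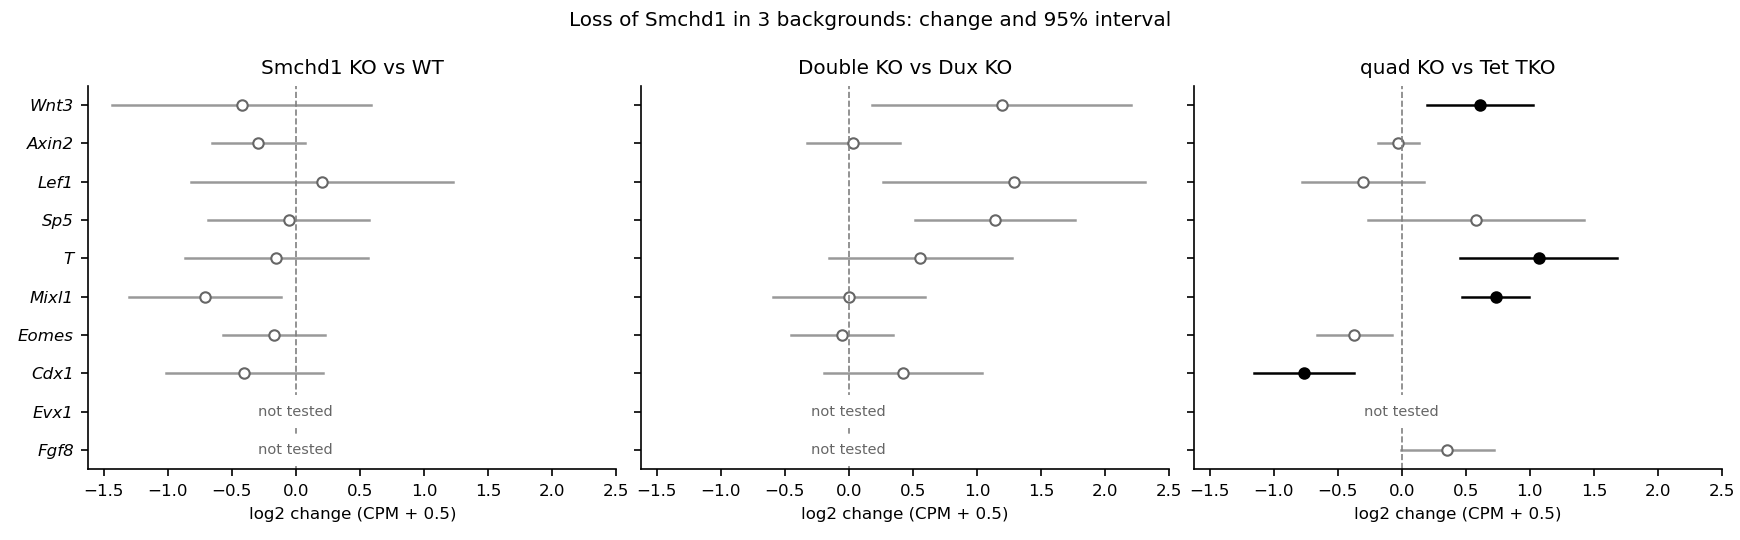
Change in log2(CPM + 0.5) (horizontal axis) for each gene on loss of Smchd1 in WT, Dux KO and Tet TKO cells, with 95% intervals from limma. Filled points were called. In quad KO vs Tet TKO the points of Wnt3 (0.61), T (1.07) and Mixl1 (0.73) are filled to the right and that of Cdx1 (-0.76) to the left, and no point is filled in the other panels.

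T (ENSMUSG00000062327.3, chromosome 17) encodes brachyury, the T-box factor of the streak and early mesoderm. It was low throughout the first table, with 0.706, 0.391 and 0.347 CPM in WT, 0.358, 0.30 and 0.468 in Smchd1 KO, and 0.0746, 0.206 and 0.524 in Dux KO. Double KO gave 0.804, 0.122 and 1.13 CPM, spanning almost the whole range. All 4 genotypes overlapped, and no change of the first table was called (adjusted p from 0.446 to 0.854 in limma). In the second table Tet TKO had 0.746, 0.277 and 0.463 CPM and quad KO 1.44, 1.03 and 2.40, without overlap.

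T rose 2.10-fold in quad KO (1.07 ± 0.27, limma adjusted p = 0.0161), with a ratio of mean CPM of 3.28. The call was lost without Tet TKO replicate 2 (0.90, adjusted p = 0.0646) or 3 (1.06, adjusted p = 0.0584) and held in 14 of 16 alternatives. Counts behind it were small, 8 to 22 reads per Tet TKO sample and 29 to 67 per quad KO sample.

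Mixl1 (ENSMUSG00000026497.7, chromosome 1) encodes a paired-type homeobox factor of the streak that acts in mesendoderm. It had 1.02, 0.976 and 0.599 CPM in WT and 0.402, 0.440 and 0.162 in Smchd1 KO, without overlap. Dux KO had 0.820, 0.618 and 0.590 CPM, within or near the WT range. Double KO had 0.928, 0.245 and 1.01 CPM, and in its replicate 3 chromosome 1 as a whole stood 0.46 log2 units up. The change in Smchd1 KO vs WT was -0.71 ± 0.27 (limma adjusted p = 0.235).

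Mixl1 rose in quad KO, where all of its values (3.04, 3.15 and 2.69 CPM) lay above those of Tet TKO (1.53, 1.56 and 1.65). The rise was 1.66-fold (0.73 ± 0.11, limma adjusted p = 0.00205), the smallest adjusted p of the 9 genes tested. The call held in 17 of 17 alternatives, with adjusted p from 5.62e-07 to 0.0141. The sign thus differed from that in Smchd1 KO vs WT, and this difference across the tables was not tested.

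Eomes (ENSMUSG00000032446.8, chromosome 9) encodes a T-box factor of the streak, definitive endoderm and trophoblast. WT had 7.40, 8.02 and 7.09 CPM. Dux KO had 5.22, 5.77 and 4.85 and Double KO 4.95, 5.5 and 4.75, all below WT and overlapping each other. Smchd1 KO replicates 1 and 3 had 7.39 and 7.51 CPM, at the WT level, and replicate 2 had 5.17. The change from WT was -0.47 ± 0.18 in Dux KO (limma adjusted p = 0.136) and -0.52 ± 0.18 in Double KO (0.125). Tet TKO had 9.94, 8.78 and 9.98 CPM and quad KO 7.05, 8.66 and 6.32. The groups did not overlap, although 8.66 and 8.78 CPM nearly met, and the change of -0.37 ± 0.13 had an adjusted p of 0.0513. It was called without quad KO replicate 2 (-0.49, adjusted p = 0.00993).

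Evx1 and Fgf8 did not pass the filter of the first table, and Evx1 not that of the second. Evx1 (ENSMUSG00000005503.8, chromosome 6), an even-skipped-type homeobox gene of the posterior streak, had 10 reads over all WT libraries, 12 over those of Smchd1 KO, 7 for Dux KO and 11 for Double KO, while Tet TKO libraries held 52 and quad KO libraries 24. Its level was 0.475, 0.484 and 0.694 CPM in Tet TKO and 0.401, 0.247 and 0.179 in quad KO, which did not overlap but were too low for the filter. Fgf8 (ENSMUSG00000025219.7, chromosome 19), a secreted growth factor that cells need to leave the streak, had 0.137 to 0.467 CPM in all 12 samples of the first table. In the second it had 0.441, 0.726 and 0.434 CPM in Tet TKO and 0.735, 0.778 and 0.933 in quad KO. The quad KO samples lay above, by a small margin, and the change was 0.36 ± 0.16 (limma adjusted p = 0.108).

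Per kilobase of merged exon (GENCODE M21, which need not be the annotation used in counting), the order in WT was Axin2 (3.10 CPM per kb), Lef1 (2.18), Eomes (1.81), Cdx1 (1.33), Sp5 (0.655), Mixl1 (0.377), Wnt3 (0.329), T (0.208), Fgf8 (0.195) and Evx1 (0.0104). The WT replicates of Mixl1, Wnt3, T and Fgf8 overlapped on this scale. So the feedback scaffold and the TCF/LEF partner were the most abundant of the set, and the streak genes other than Eomes the least.

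**Figure D3:**
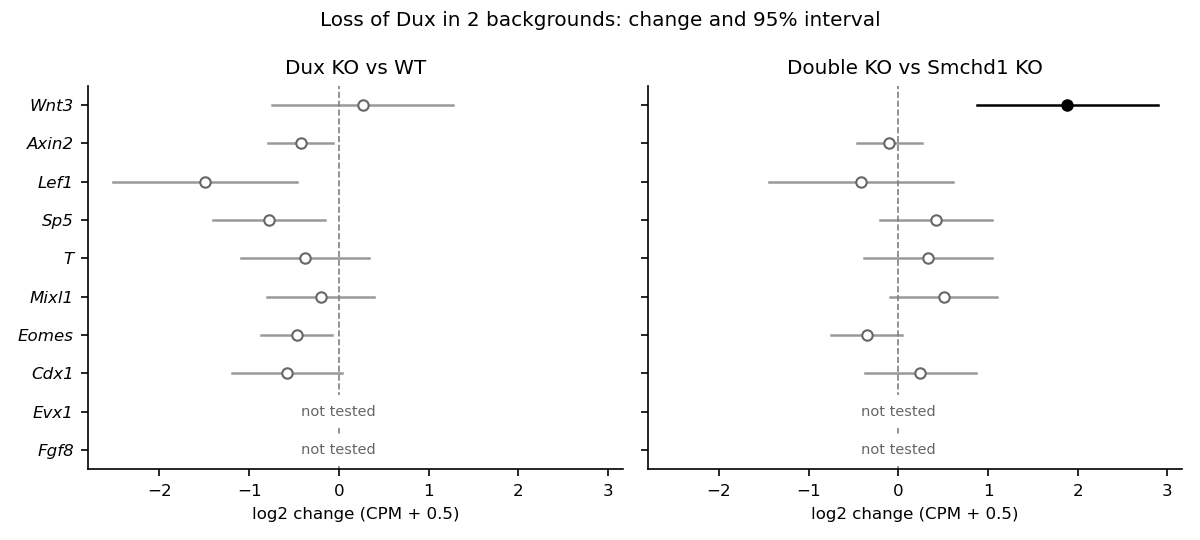
Change in log2(CPM + 0.5) (horizontal axis) for each gene on loss of Dux in WT and in Smchd1 KO cells, with 95% intervals from limma. Filled points were called, which is Wnt3 (1.88) in Double KO vs Smchd1 KO. The interval of Lef1 in Dux KO vs WT runs from -2.52 to -0.47, although its adjusted p is 0.0858.

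Taking genes by whether their samples overlapped gave a wider background than the test. In Smchd1 KO vs WT 2 of 8 did not overlap (Mixl1 and Axin2, both lower), against 57.7% of all genes. In Dux KO vs WT it was 5 of 8 (Eomes, Axin2, Lef1, Sp5 and Cdx1, all lower), against 39.6%, and in Double KO vs Dux KO 1 of 8 (Sp5, higher), against 6.15%. In Double KO vs Smchd1 KO it was 1 of 8 (Wnt3), against 29.7%, and in Double KO vs WT 3 of 8 (Wnt3 higher, Eomes and Axin2 lower), against 36.2%. In quad KO vs Tet TKO 6 of 9 did not overlap, 4 higher and 2 lower, against 53.3%. When only WT and Smchd1 KO were fitted, Mixl1 and Axin2 were called lower, which is 2 of 8 against 42.3% of all genes. Without Double KO replicate 2, Mixl1, Sp5 and Wnt3 were called higher in Double KO vs Smchd1 KO, against 8.56% of all genes.

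The direction of the genes tested is given as a description. In Smchd1 KO vs WT 7 of 8 changes were negative with a median of -0.23, and in Dux KO vs WT also 7 of 8 with a median of -0.45, against medians of 0.0034 and -0.027 over all genes. In Double KO vs Dux KO 6 of 8 were positive with a median of 0.49, against -0.016. The interaction was positive for 8 of 8 with a median of 0.77, against -0.018, but the sign of Eomes turned without Smchd1 KO replicate 2 (-0.045) and with array quality weights (-0.062), and that of Lef1 without the samples with a shifted chromosome (-0.094). The median was 0.29 in Double KO vs Smchd1 KO, in Double KO vs WT -0.18 and in quad KO vs Tet TKO 0.36, against -0.034, -0.044 and -0.0076.

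**Figure D4:**
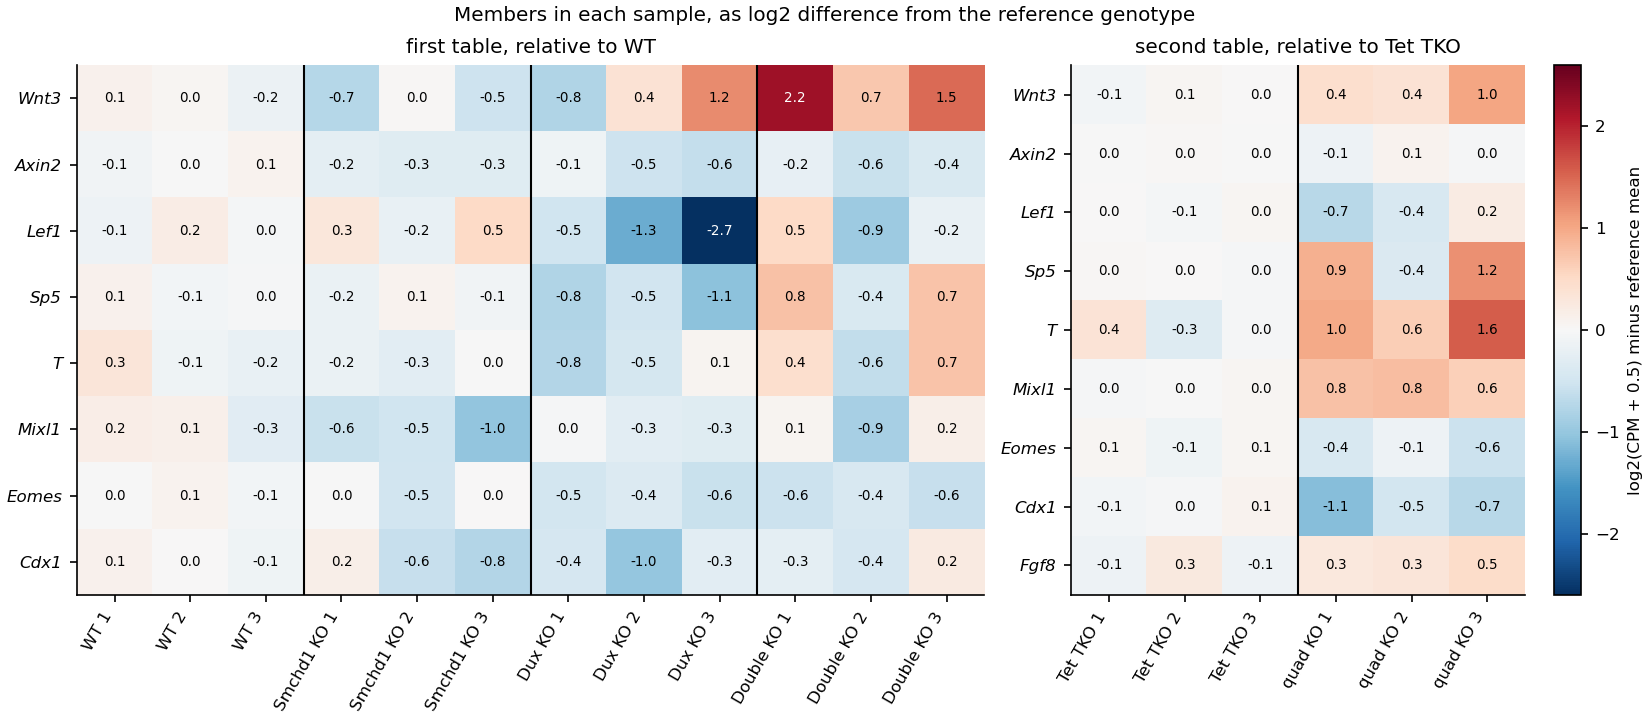
Each tested gene (rows) in each biological sample (columns) as log2(CPM + 0.5) minus the mean of WT in the first table and of Tet TKO in the second; red is higher and blue lower. Double KO replicate 2 is blue or pale for Sp5, T and Mixl1 where replicates 1 and 3 are red or pale, and Lef1 falls furthest, to -2.7, in Dux KO replicate 3.

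The knockout replicates differed among themselves in several genes at once. In Double KO, replicate 2 had the lowest level of Wnt3, Axin2, Lef1, Sp5, T, Mixl1 and Cdx1 among its 3 samples. In quad KO, replicate 3 had the highest Wnt3, Lef1, Sp5, T and Fgf8, and the lowest Mixl1 and Eomes. The summed level of the ES cell markers was 2868, 2914 and 2980 CPM in quad KO replicates 1, 2 and 3 and 2371, 3227 and 3729 in those of Double KO. It was thus highest in quad KO replicate 3, by a small margin, and lowest in Double KO replicate 1, which had the most Wnt3 and Lef1 of its genotype. In quad KO, Tdgf1 (963, 982 and 1281 CPM in replicates 1, 2 and 3) and Pou5f1 (694, 707 and 718) were highest in replicate 3. The other markers, Nanog, Sox2, Zfp42, Esrrb, Klf4, Dppa4 and Dppa5a, were lowest there, with Nanog at 61.5, 65.0 and 30.8 CPM.

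The wider pathway was described by 7 gene lists. In Smchd1 KO vs WT 1 list gene passed, among the 10 antagonists tested, where 0.889% of all genes were called. It was Dkk3, a member of the Dickkopf family, which rose 2.59-fold (3.65 ± 0.198 to 10.4 ± 2.04 CPM, limma adjusted p = 0.0443). In Dux KO vs WT, with 3.98% of all genes called, 1 of 14 feedback and target genes passed: Sp8, a zinc-finger relative of Sp5, fell 2.34-fold (2.19 ± 0.192 to 0.650 ± 0.117 CPM, adjusted p = 0.0477). These calls were close to the threshold, and each was lost without any 1 of the WT replicates, with adjusted p up to 0.235 for Dkk3 and 0.185 for Sp8. In all, the Dkk3 call was lost in 11 of 18 alternatives, among them each Smchd1 KO replicate left out, and the Sp8 call in 10 of 17. No list gene passed in Double KO vs Dux KO, in Double KO vs WT or in the interaction.

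The ligand gene Wnt8a rose 2.03-fold in Double KO vs Smchd1 KO (0.197 ± 0.0413 to 0.934 ± 0.285 CPM, limma adjusted p = 0.0310), as did Ror1, a receptor of non-canonical Wnt signals (2.55-fold, 0.0475), and Tcf7l1, the main TCF repressor of ES cells (1.65-fold, 36.7 ± 1.00 to 62.0 ± 13.7 CPM, 0.0486). Tdgf1, a Nodal co-receptor, fell 1.98-fold (0.0218). With Wnt3 these were 2 of 13 ligand genes, 1 of 19 receptor genes, 1 of 12 TCF/LEF factors and cofactors and 3 of 18 streak genes, which the lists partly share, against 4.38% of all genes. All 4 calls were lost without Smchd1 KO replicate 1, 2 or 3 or Double KO replicate 1, with adjusted p up to 0.194. Tcf7l1 stood at 57.5 ± 3.07 CPM in WT, so the Smchd1 KO samples were the low ones. Ctnnb1, which encodes beta-catenin, and Tcf7 were called in none of the 6 comparisons of the first table, with log2 changes from -0.30 to 0.20 and from -0.28 to 0.12.

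In quad KO vs Tet TKO many pathway genes moved, in both directions; the counts include Wnt3, T, Mixl1 and Cdx1. Of 14 ligand genes tested 6 rose and 1 fell, among them Wnt16 (2.17-fold up), Wnt7a (1.91-fold up) and Wnt5a (1.66-fold up). Wnt16, at 0.271, 0.242 and 0.231 CPM in Tet TKO, passed the filter through the quad KO samples alone, so only a rise could be called. Of 19 genes of receptors and the R-spondin system 9 rose and 3 fell: Fzd5 fell 1.93-fold (131 ± 4.20 to 67.8 ± 6.58 CPM) and Fzd7 1.83-fold, while Lgr5, an R-spondin receptor and Wnt target, rose 1.72-fold. Of 13 genes for secretion, the destruction complex and beta-catenin 2 rose and 3 fell. Porcn, the enzyme that acylates Wnt ligands, fell 2.31-fold (22.7 ± 0.574 to 9.56 ± 0.907 CPM), Btrc fell 1.23-fold, Gsk3b rose 1.21-fold and Ctnnb1 fell 1.10-fold.

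Of 12 TCF/LEF factors and cofactors 6 rose and 3 fell: Tcf7l2 rose 1.72-fold, Bcl9l 1.43-fold and Tcf7 1.2-fold, while the co-repressor Tle3 fell 1.48-fold and Tcf7l1 1.32-fold. Of 8 antagonists 2 rose and 3 fell, with Sfrp1 down 1.98-fold, Notum down 1.94-fold and Sfrp2 up 1.49-fold. Of 16 feedback and target genes 8 rose and 2 fell, and of 18 streak and early mesoderm genes 8 rose and 1 fell. The latter lists share Cdx2, which rose 2.96-fold (7.68 ± 0.394 to 24.3 ± 6.27 CPM) and also marks trophoblast, as does Hand1, up 2.23-fold. Bmp4, a signal that induces mesoderm, was the streak gene that fell (3.17-fold).

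The largest adjusted p (limma) among the genes named from these lists was 0.0453, for Ror1 (1.30-fold up). The medians of the lists lay between 0.030 for the secretion and destruction genes and 0.37 for the streak genes, against -0.0076 over all genes, and 37.7% of all genes were called. Of 25 calls named from these lists and the ES cell markers, 17 held under every alternative. Lost under some were Wnt7a, Wnt5a, Bcl9l, Gsk3b, Sfrp2, Ctnnb1, Ror1 and Tcf7l1. The first 7 of these lost it without 1 or more Tet TKO replicates, and their highest adjusted p ran from 0.0564 for Sfrp2 to 0.164 for Ror1. Tcf7l1 lost it with chromosome medians centred (-0.14, adjusted p = 0.175).

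**Figure D5:**
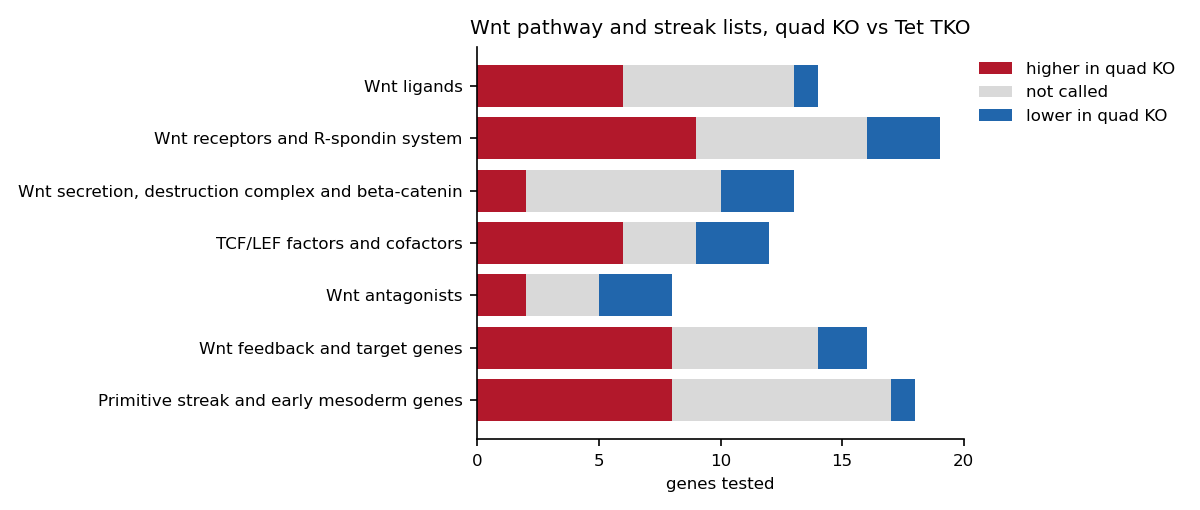
Number of genes tested (horizontal axis) in each of 7 pathway lists in quad KO vs Tet TKO, split into those higher in quad KO (red), not called (grey) and lower (blue). Streak and early mesoderm genes have 8 higher and 1 lower of 18, and the genes for secretion and destruction 2 and 3 of 13.

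Markers of other cell states differed in the same comparison, where 17.1% of all genes were called higher and 20.6% lower. Of 9 ES cell markers 1 rose and 5 fell, with Nanog at 265 ± 11.8 CPM in Tet TKO and 52.4 ± 18.8 in quad KO, and the summed level went from 3573-3698 to 2868-2980 CPM. Of 8 trophoblast markers 6 rose and 1 fell (summed level 231 to 239 and 291 to 548 CPM), of 6 neural markers 4 rose, of 7 fibroblast markers 4 rose, of 7 endoderm markers 2 rose and 3 fell, and of 8 markers of blood, vessel and heart mesoderm 4 rose and 4 fell. Col3a1 and Pax3, counted among those that rose, passed the filter through the quad KO samples alone. Hnf4a, counted among those that fell, passed it through the Tet TKO samples alone. Ttr of the endoderm list was at 0 in all 6 samples. The part of these markers in the results for T, Mixl1, Wnt3 and Cdx1 was not tested.

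The genes whose pattern over the 12 samples of the first table was most like a member are named as a description, by Pearson's r of log2(CPM + 0.5) among 14037 genes, for members with a mean of at least 1 CPM. Samples of a genotype share it, and the highest of so many correlations is high by selection. For Wnt3 they were Fras1 (0.94) and Erap1 (0.93), for Axin2 Rnaseh1 (0.95) and Aven (0.94), and for Lef1 Gtpbp3 (0.94) and Vrtn (0.94). For Eomes they were Nudt9 (0.93) and Parp12 (0.91), for Sp5 4921507P07Rik (0.90) and Aldh1a2 (0.87), and for Cdx1 Gm7666 (0.87) and Ankfy1 (0.85). No member was among the closest genes of another.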

How the data were processed

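RNA after ribosomal depletion (KAPA RNA HyperPrep with RiboErase, total RNA, per the labels' protocols) was sequenced from mouse ES cells. Per the submitters' processing notes the tools were Trim Galore, STAR 2.5.1 and limma 3.38.2 with build mm9; the read counter, annotation and filters are not given in the sources used here. The deposited signal values are CPM by name, scaled by the authors, and column totals are not exactly 1000000. Whole reads were recovered: in each column, 100% of values under 200 reads came within 0.1 of a whole number once divided by the value of 1 read. The design had assumed CPM, which needs the same test.

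Technical runs were averaged (reads were summed for edgeR and DESeq2), and the 6 Smchd1 KO columns, which name no replicate, were joined into the pairs that differed least. All genotypes of a table entered 1 limma fit with trend on log2(CPM + 0.5), with genes of at least 0.5 CPM in at least 3 samples, in R 4.3.3 with limma 3.58.1, edgeR 4.0.16 and DESeq2 1.42.0. The fit was tested on simulated counts with the same spread in every genotype and no shifted chromosomes. That test does not cover groups of unequal spread, such as those here. Replicate numbers do not pair samples. The second table has 3 WT columns that match no single sample and were not used, so Tet TKO vs WT and quad KO vs WT are not analysed here.

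The 10 genes and all lists were chosen with earlier results of these data known. Named are the 10 genes; of each list the called genes, at most 3 with the largest change per comparison; Ctnnb1, Tcf7l1 and Tcf7; the 2 genes most alike in pattern; and the targeted genes. Marker genes named, such as Ttr and Ascl2, were chosen after their values were seen. Gene positions are chromosomes only, since the reference is GENCODE M21.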

Additional observations from a re-analysis of the deposited data

Results flagged for a closer look

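In 3 genes the samples lay on one side of the control mean on loss of Smchd1 in one background and on the opposite side in another. For T the effect per sample ran from -0.28 to -0.00075 log2 units in Smchd1 KO vs WT and from 0.64 to 1.57 in quad KO vs Tet TKO, a difference of 1.22 between the mean effects. In Smchd1 KO vs WT, however, the T samples overlapped, 1 lay almost at the WT mean, and the mean effect reversed to 0.0067 without WT replicate 1. For Mixl1 it ran from -1.03 to -0.52 and from 0.62 to 0.81, a difference of 1.45. For Cdx1 it ran from 0.15 to 0.80 in Double KO vs Dux KO and from -1.11 to -0.47 in quad KO vs Tet TKO, a difference of -1.19. The Cdx1 samples of Double KO and Dux KO overlapped, however, and that change was not called (limma adjusted p = 0.680). The effects come from separately scaled tables, and these differences were not tested.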

How the results depend on the processing

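Counts of called genes in the first table moved widely between alternatives. Of 1036 alternative values of the 57 log2 changes of the tested genes, 958 kept direction and side of the threshold, 38 newly passed it, 13 no longer did and 27 reversed. The causes were not tested, other than fewer samples or genes in a fit. Levels rest on few reads for T, Evx1 and Fgf8, and in Dux KO also for Sp5 (8, 12 and 6 reads) and Mixl1 (11, 9 and 9). Wnt3 had 5 reads in Dux KO replicate 1, and Mixl1 had 4 in Double KO replicate 2. Leaving out the samples with a shifted chromosome leaves 1 Dux KO sample, which is assumed to vary like the other groups, and 2 samples each of Smchd1 KO, Double KO and quad KO, so its values and calls for Dux KO and the interaction rest on that sample.

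Genes called, Smchd1 KO vs WT (144): 71 with a filter of 2 CPM, 230 edgeR, 1082 DESeq2, 9292 array quality weights, 6852 only the genotypes compared, 2751 without samples with a shifted chromosome, 51 to 79 leaving out each replicate. Dux KO vs WT (644): 338 no filter, 344 quantile, 2606 DESeq2, 6431 weights, 5479 without shifted samples, 2 to 2790 leaving out each replicate. Double KO vs Dux KO (2): 12 no filter, 220 DESeq2, 1 weights, 0 only the genotypes compared, 4 chromosome medians centred, 3364 without shifted samples, 0 to 146. Double KO vs Smchd1 KO (709): 2456 DESeq2, 2673 weights, 121 only the genotypes compared, 5806 without shifted samples, 99 to 2428. Double KO vs WT (255): 152 quantile, 555 edgeR, 2008 DESeq2, 2439 weights, 6762 without shifted samples, 2 to 3006. Interaction (83): 9 with a pseudocount of 0.1, 11 filter of 2 CPM, 7 edgeR, 946 DESeq2, 2242 weights, 1688 without shifted samples, 0 to 1203. Quad KO vs Tet TKO (5619): 10792 weights, 3541 to 7638.

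Of the 10 genes, called in Smchd1 KO vs WT (0): 3 weights, 2 only the genotypes compared, 0 to 0 leaving out each replicate. Dux KO vs WT (0): 2 DESeq2, 3 weights, 1 without shifted samples, 0 to 1. Double KO vs Dux KO (0): 1 DESeq2, 1 without shifted samples, 0 to 1. Double KO vs Smchd1 KO (1): 0 no filter, 0 only the genotypes compared, 2 without shifted samples, 0 to 3. Double KO vs WT (0): 1 DESeq2, 1 weights, 3 without shifted samples, 0 to 0. Interaction (0): 1 DESeq2, 1 weights, 1 without shifted samples, 0 to 1. Quad KO vs Tet TKO (4): 9 weights, 2 to 6.

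With a replicate block, genes called in Double KO vs WT were 148, and the Wnt3 call in Double KO vs Smchd1 KO was lost (0 of the 10 genes called, adjusted p = 0.0584); no other count of calls for the 10 genes changed, or moved by over 1.5 times for all genes. The replicate numbers do not pair the samples: same-numbered samples correlated from -0.425 to 0.469 in the first table (6 of 18 pairs over 0.1) and from -0.0299 to 0.0166 in the second (0 of 3), and 17 of 36 and 2 of 6 correlated best with their own number.

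Log2 changes reversed as follows. Without the shifted samples, Wnt3 was -0.79 in Dux KO vs WT (the value of Dux KO replicate 1 alone), Eomes 0.00022 and Axin2 -0.28 in Double KO vs Dux KO, T -0.016 and Cdx1 -0.040 in Double KO vs Smchd1 KO, T -0.10 in Double KO vs WT and Lef1 -0.094 in the interaction. With array quality weights Cdx1 was -0.13 in Double KO vs Smchd1 KO and Eomes -0.062 in the interaction. Mixl1 in Double KO vs Dux KO was 0.016 with a pseudocount of 2, 0.12 with edgeR and 0.13 with DESeq2, and Axin2 in quad KO vs Tet TKO was 0.015 with quantile normalization. Leaving out each replicate gave, in Smchd1 KO vs WT, Sp5 -0.13 to 0.0031 and T -0.25 to 0.0067; in Dux KO vs WT Wnt3 -0.21 to 0.80; in Double KO vs Dux KO Mixl1 -0.18 to 0.33, Eomes -0.11 to 0.0073 and Axin2 -0.066 to 0.19; in Double KO vs WT Mixl1 -0.39 to 0.12, Lef1 -0.57 to 0.16 and T -0.10 to 0.59; in the interaction Eomes -0.045 to 0.20; and in quad KO vs Tet TKO Axin2 -0.087 to 0.029. Alternatives with the WT columns of the second table, and single technical runs of Smchd1 KO, were not run, since their columns name no sample or run.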

Other observations

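Levels of the low genes differed between the technical runs of WT. The mean of Wnt3 was 1.17 CPM in run 1 and 0.85 in run 2, that of Sp5 was 1.58 and 1.17, and that of Evx1 was 0.0597 and 0. For 14 of 20 such values the run differed from the reported mean by less than 1 SD of the replicates.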
